A study of Mus musculus with 6 samples.

Results

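The vascular endothelial growth factor (VEGF) ligands and receptors were followed across the cell types of mouse lower abdominal muscle (LAM). The set holds 9 of the 16494 genes in the table, listed by name: the ligands *Vegfa*, *Vegfb*, *Vegfc* and *Pgf*, the receptors *Flt1*, *Kdr* and *Flt4*, and the co-receptors *Nrp1* and *Nrp2*. All 9 had UMIs (unique molecular identifiers, 1 per captured RNA molecule) in every mouse. LAM was taken from 3 wild-type (WT) and 3 Arom male mice of the FVB/N strain at 9 to 10 weeks of age, and its dissociated cells were sequenced with 10x Genomics 3' chemistry. Arom mice carry the human aromatase gene, whose enzyme makes estrogen from androgen, under its own tissue-specific promoters, and their labels give scrotal hernia as the disease. WT mice carry no transgene and are labelled as controls. Multinucleated muscle fibers were removed by filtering before capture, and the cluster called skeletal myonuclei here is named from muscle fiber genes, so it may hold nuclei or fragments that passed the filter. The methods describe 1 WT and 1 Arom littermate handled on each of 3 dates, so each sample was a separate animal; which samples share a date was not given in the sources used here.

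VEGF-A binds the receptors VEGFR1 (*Flt1*) and VEGFR2 (*Kdr*). VEGFR2 carries most of the growth and permeability signal in endothelial cells, while VEGFR1 binds VEGF-A tightly and signals weakly, and its soluble form acts as a trap. VEGF-B and placental growth factor (*Pgf*) bind VEGFR1, and VEGF-C binds VEGFR3 (*Flt4*), the receptor of lymphatic endothelium. Neuropilin-1 and neuropilin-2 present VEGF to these receptors and also bind class 3 semaphorins. The counts used here are per gene, so they do not separate the membrane and soluble forms of *Flt1*, nor the splice forms of *Vegfa*.

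The table held 63647 barcodes, between 7905 and 13764 a mouse, with 64958237 to 111826460 UMIs. The Arom samples had higher median UMIs per barcode (6673 to 8727) than the WT samples (4728.5 to 5897). Their median mitochondrial share was lower, at 3.81, 3.85 and 3.58% against 4.07, 6.62 and 4.36% in WT replicates 1, 2 and 3. Human *CYP19A1* had 770, 797 and 787 UMIs in the Arom mice and 0 in each WT mouse, as the labels require. In all, 471 barcode sequences occurred in 2 or more libraries. Clusters were named from marker genes that included no member of the set, and 19 cell types had at least 20 barcodes in every mouse. Blood endothelial cells comprised capillary, arterial and venular cells. With lymphatic endothelial cells they had the highest summed level of 6 general endothelial markers (*Pecam1*, *Cdh5*, *Emcn*, *Cldn5*, *Egfl7* and *Esam*). All 6 had UMIs in every cell type. Their summed level averaged 7590 CPM in WT and 7156 CPM in Arom capillary cells, and 3022 and 3191 CPM in lymphatic cells. The highest level in another type was that of pericytes, 571 CPM in WT and 463 CPM in Arom mice. The general fibroblast markers were higher in tenocytes (a summed 58733 CPM) than in the cells named fibroblasts (44384 CPM). The markers of non-myelinating glia were about as high in myelinating Schwann cells (2318 CPM) as in the glia (2289 CPM). Those of *Mmp3*-high fibroblasts ran from 2569 to 12029 CPM by mouse, against a mean of 5362 CPM in mesothelial cells, so these names are weaker than the others. CPM here are UMIs of a gene scaled to counts per 1e+06 UMIs of all cells of that type in a mouse, and levels are means ± SD over the 6 mice unless a genotype is named. Levels between cell types are a description without a test, as the types were drawn from other genes of the same cells.

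The receptors were highest in endothelial cells, each in a different pattern of vessel types. *Kdr* (chr5:75932827-75978458, GRCm38) was highest in capillary cells at 612 ± 43 CPM. It followed in lymphatic (303 ± 38 CPM), venular (180 ± 29 CPM) and arterial cells (124 ± 22 CPM), and each of these steps held in 6 of 6 mice. Outside the endothelium *Kdr* was highest in *Esr1*-high fibroblasts at 63.2 ± 16 CPM, close to mesothelial cells (48.9 ± 35 CPM), from which it did not separate in every mouse (higher in 5 of 6). *Flt1* (chr5:147561604-147726011) was also highest in capillary cells, at 1116 ± 85 CPM. Arterial (740 ± 70 CPM) and venular cells (624 ± 90 CPM) followed and stood in that order in 4 of 6 mice. *Flt1* in lymphatic cells was far lower, 42.3 ± 17 CPM, below smooth muscle cells (164 ± 86 CPM) and pericytes (143 ± 78 CPM). Smooth muscle cells and pericytes, which wrap vessels, had the highest *Flt1* levels outside the endothelium. The summed endothelial markers were 256 to 317 CPM in smooth muscle cells and 406 to 599 CPM in pericytes, and their part in these levels was not tested.

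*Flt4* (chr11:49609263-49652739) was the most restricted receptor. It reached 655 ± 37 CPM in lymphatic cells, 18.8 times its level in the next type, capillary cells (34.8 ± 6.3 CPM). Arterial cells had 22.7 ± 5.4 CPM and venular cells 8.53 ± 2.2 CPM. No other type averaged above 2.96 CPM, and the 5 fibroblast types averaged at most 0.482 CPM. In barcodes, 81.3 ± 5.7% of lymphatic cells held a *Flt4* UMI, against 0.444 ± 0.37% of tenocytes, at median depths of 4063 and 7742 UMIs. After each barcode was thinned to 1000 UMIs these shares were 45.5 ± 3.4% and 0%.

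The co-receptors divided the vessels between them. *Nrp1* (chr8:128358604-128503363) was highest in capillary cells (618 ± 50 CPM), followed by pericytes (282 ± 36 CPM), arterial cells (226 ± 17 CPM) and venular cells (162 ± 21 CPM), in that order in 6 of 6 mice. It was near its lowest in lymphatic cells (19.8 ± 4.5 CPM). *Nrp2* (chr1:62703285-62818695) was highest in venular cells (564 ± 51 CPM) in 6 of 6 mice, followed by lymphatic cells (447 ± 56 CPM). Macrophages (334 ± 68 CPM) and capillary cells (307 ± 45 CPM) came next and could not be ordered (4 of 6 mice), and dendritic cells had 237 ± 54 CPM. Fibroblasts (14.7 ± 1.1 CPM) and muscle stem cells or myoblasts (6.19 ± 2.9 CPM) were among the lowest for *Nrp2*.

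*Vegfa* (chr17:46016993-46032369) had no single highest type. *Mmp3*-high fibroblasts (102 ± 36 CPM), arterial cells (90.4 ± 15 CPM) and *Dmkn*-high fibroblasts (88.6 ± 16 CPM) led, the first above the second in 2 of 6 mice. Muscle stem cells or myoblasts (52.4 ± 22 CPM) and macrophages (52.4 ± 36 CPM) followed, and pericytes were lowest at 16.0 ± 7.6 CPM. Fibroblast-like cells as a whole held 56.1, 33.2 and 25.4% of the *Vegfa* UMIs in WT and 69.0, 77.6 and 52.6% in Arom mice. They were on average 24.4% and 42.2% of the barcodes. Depth differed between types, with a median of 9213 UMIs per barcode in fibroblasts and 2548.5 in capillary cells. A share of UMIs therefore cannot be read against a share of barcodes as enrichment. *Vegfb* (chr19:6982473-6987651) was highest in skeletal myonuclei at 141 ± 16 CPM, 5.45 times the level of smooth muscle cells (25.9 ± 7.5 CPM), in 6 of 6 mice. *Vegfb* was lowest in capillary cells (4.20 ± 0.86 CPM).

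*Vegfc* (chr8:54077606-54187096) was highest in arterial cells at 160 ± 34 CPM, 3.86 times tenocytes (41.3 ± 11 CPM) and in 6 of 6 mice. It averaged 3.29 ± 2.7 CPM in the lymphatic cells that carry its receptor. *Pgf* (chr12:85166635-85177790) was highest in lymphatic cells (253 ± 58 CPM), again in 6 of 6 mice, before capillary (137 ± 63 CPM) and arterial cells (107 ± 87 CPM). Venular cells had 11.8 ± 9.1 CPM of *Pgf*.

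**Figure D1:**
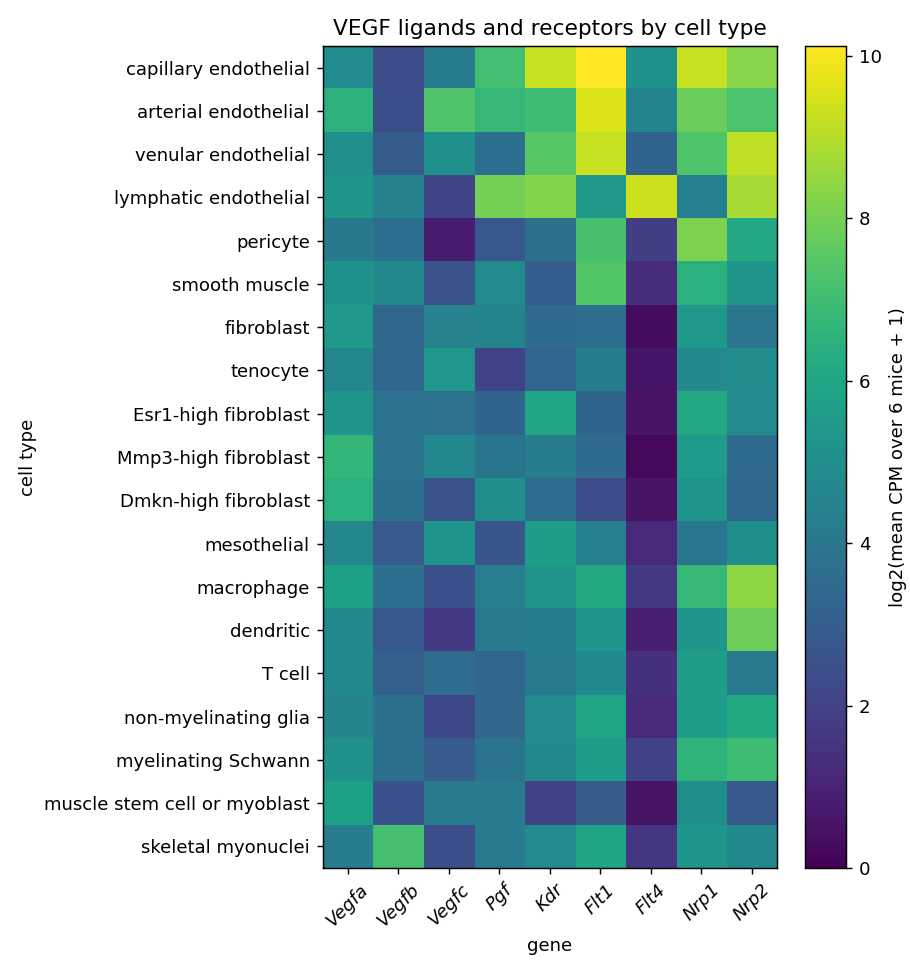
Mean level of each of the 9 genes (columns) in the 19 cell types (rows), as log2 of the mean CPM over 6 mice plus 1, on a color scale from 0. *Flt4* is bright in lymphatic endothelial cells alone (655 CPM), *Vegfb* in skeletal myonuclei (141 CPM) and *Kdr*, *Flt1* and *Nrp1* in capillary cells.

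The genes whose pattern over the 19 cell types was most like that of each member were listed by Pearson's r of log2(mean CPM + 1), among 9657 genes reaching 20 CPM in some type. Cell types share libraries and free RNA, so r is a description. *Flt1* was most like *Fabp4* (0.96), a fatty acid carrier, *Iigp1* (0.95) and *Gpr4* (0.94). *Flt4* was most like *Adgrg3* (0.97), *Klhl4* (0.97) and *Wscd1* (0.95), and *Kdr* like *Sox18* (0.91), an endothelial transcription factor, *Cmtm8* (0.91) and *Rassf9* (0.90). *Nrp2* was most like *Smagp* (0.90), *Cd300lg* (0.89) and *Ceacam1* (0.89), and *Nrp1* like *Cdc42ep4* (0.82), *Tcf15* (0.81) and the chemokine *Cxcl12* (0.80). *Vegfb* was most like *Acot13* (0.91), the mitochondrial fusion gene *Mfn2* (0.89) and *Coq10a* (0.88). *Vegfc* was most like *Bmp4* (0.86), *Galnt15* (0.82) and *Clu* (0.79), and *Pgf* like the arterial ephrin *Efnb2* (0.82), *Wscd1* (0.81) and *Btnl9* (0.80). *Vegfa* had the weakest likeness, to *Glul* (0.74), *Ackr3* (0.72) and *Eif4e* (0.71).

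To ask how the transgene bears on the set in the tissue as a whole, UMIs were first summed over all barcodes of a mouse and compared between genotypes with edgeR's quasi-likelihood test (Benjamini-Hochberg adjustment over all genes tested, threshold 0.05). In such sums, fewer cells of a type and less RNA per cell cannot be told apart. Of 9 members, 4 fell in Arom mice and none rose, where 23.6% of all genes tested were called. *Flt1* had 289, 357 and 523 CPM in WT and 112, 91.8 and 192 CPM in Arom mice. The genotypes did not overlap, and the log2 fold change of Arom over WT was -1.54 ± 0.32 (SE, edgeR adjusted p = 0.025). *Kdr* had 135, 204 and 206 CPM against 63.2, 68.5 and 86.8 CPM, a log2 fold change of -1.29 ± 0.18 (edgeR adjusted p = 0.018). *Nrp1* fell by 0.81 ± 0.16 and *Vegfc* by 0.78 ± 0.15 on the log2 scale (edgeR adjusted p = 0.022 and 0.021). *Flt4* (-1.15 ± 0.34, edgeR adjusted p = 0.054) and *Nrp2* (-0.67 ± 0.20, edgeR adjusted p = 0.056) missed the threshold. *Vegfa* had 46.5, 43.1 and 46.2 CPM in WT and 64.7, 64.7 and 34.5 CPM in Arom mice, so the groups overlapped. Blood endothelial cells held 19.5, 23.3 and 31.5% of UMIs in WT and 9.07, 5.95 and 14.6% in Arom mice, and the part of this share in the differences was not tested. Without Arom replicate 1, Arom replicate 2, WT replicate 2 or WT replicate 3 no member was called, where 0, 0, 1 and 2 genes were called over all genes and 4521, 4672, 5100 and 4741 had an unadjusted p under 0.05. Without Arom replicate 3 there were 8 members among 4877 of 15661 genes called. DESeq2 called 7 members among 5527 of 15813 genes. Within the study's limits on cells, edgeR called 0 of 13630 genes, and 1861 had an unadjusted p under 0.05.

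Within blood endothelial cells, 3 of 9 members were called, where 14.3% of genes tested were. *Kdr* had 447, 521 and 407 CPM in WT and 307, 382 and 300 CPM in Arom cells, without overlap, a log2 fold change of -0.47 ± 0.13 (edgeR adjusted p = 0.043). *Nrp1* had 439, 481 and 452 CPM against 306, 321 and 367 CPM (-0.45 ± 0.12, edgeR adjusted p = 0.032). *Nrp2* was the reverse, with 310, 290 and 349 CPM in WT and 412, 487 and 383 CPM in Arom cells (0.44 ± 0.13, edgeR adjusted p = 0.049). *Flt1* had 945, 878 and 978 CPM against 767, 818 and 837 CPM, which did not overlap either but missed the threshold (-0.20 ± 0.11, edgeR adjusted p = 0.26). *Pgf*, *Vegfa*, *Vegfb*, *Vegfc* and *Flt4* had log2 fold changes between -0.33 and 0.34 and were not called. Leaving out WT replicate 1, 2 or 3 or Arom replicate 1 left no member called. In those fits 1373, 577, 1197 and 455 genes were called over all genes. Leaving out Arom replicate 2 left *Kdr* alone, among 777 of 12363 genes called. Within the study's limits on cells (18852 barcodes of all types) none of the 3 was called, where 822 of 10104 genes were. Their log2 fold changes there were -0.37 for *Kdr*, -0.30 for *Nrp1* and 0.41 for *Nrp2* (edgeR adjusted p = 0.086, 0.20 and 0.087).

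The makeup of the blood endothelial sum differed between genotypes. Capillary cells gave 58.9, 75.3 and 64.0% of its UMIs in WT and 27.0, 41.0 and 36.8% in Arom mice. Venular cells gave 27.5, 14.9 and 18.9% in WT and 58.9, 47.6 and 44.9% in Arom mice, and arterial cells 9.84 to 18.3% over all mice. *Kdr* and *Nrp1* were highest in capillary cells and *Nrp2* in venular cells, as given above.

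**Figure D2:**
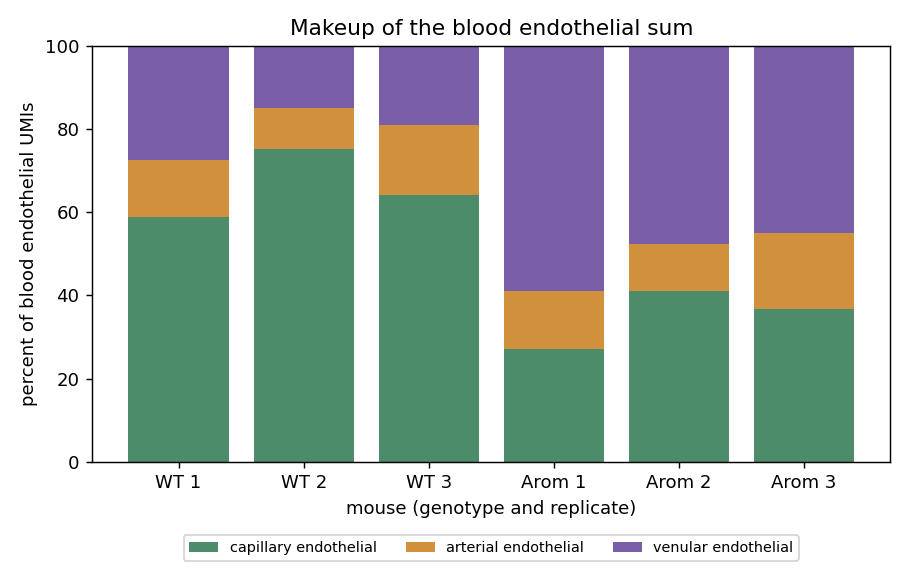
Share of the UMIs of the blood endothelial sum (y axis, percent) that came from capillary, arterial and venular cells in each of the 6 mice. Venular cells gave 14.9 to 27.5% in the WT mice and 44.9 to 58.9% in the Arom mice.

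Each vessel type was then tested by itself. No member was called by edgeR in capillary cells (2.01% of genes called), arterial cells (0.0608%), venular cells (1.12%) or lymphatic cells (0%). At an unadjusted p under 0.05 there were 3, 2, 2 and 2 members in these types, and DESeq2 called 0 in each. Over all genes, that threshold was passed by 1503 of 10987 genes in capillary, 932 of 8217 in arterial, 1716 of 9457 in venular and 524 of 7647 in lymphatic cells. Capillary *Kdr* had 653, 643 and 559 CPM in WT and 631, 628 and 557 CPM in Arom mice, a log2 fold change of -0.06 ± 0.12. Capillary *Nrp1* differed by 0.08 ± 0.12 and *Flt1* by 0.11 ± 0.12. Capillary *Flt4* had 31.0, 27.6 and 29.8 CPM in WT and 41.8, 42.5 and 36.0 CPM in Arom mice, without overlap (0.41 ± 0.13, edgeR adjusted p = 0.14). Venular *Nrp2* had 509, 563 and 584 CPM in WT and 525, 653 and 548 CPM in Arom mice (-0.07 ± 0.13), which overlapped. The mean CPM was slightly higher in Arom mice and the fitted value negative, as the fit also applies TMM factors (0.946 to 0.965 in WT and 1.01 to 1.08 in Arom venular sums), which CPM do not. Venular *Kdr* was 158, 152 and 167 CPM against 203, 226 and 175 CPM, without overlap, at 0.21 ± 0.12 (edgeR adjusted p = 0.39). When the capillary, arterial and venular levels were given equal weight in each mouse, an alternative chosen after seeing the data, the log2 difference was -0.016 for *Kdr*, -0.12 for *Nrp1* and 0.013 for *Nrp2*, with limma adjusted p of 0.96, 0.57 and 0.98. Of the ligands, *Vegfc* and *Vegfa* had negative values in each vessel type, and neither passed the test. *Vegfc* had log2 fold changes of -0.82 ± 0.26, -0.41 ± 0.17 and -0.90 ± 0.34 in capillary, arterial and venular cells, and *Vegfa* of -0.44 ± 0.15, -0.30 ± 0.17 and -0.40 ± 0.13. *Pgf* in arterial cells had 55.7, 87.2 and 40.7 CPM in WT and 278, 109 and 71.8 CPM in Arom mice, a wide spread led by Arom replicate 1 (1.26 ± 0.41, edgeR adjusted p = 0.26). A replicate block called arterial *Pgf*, and with it calls over all genes went from 5 to 235 of 8217. In cells within the study's limits on genes, UMIs and mitochondrial share, arterial *Pgf* was the one member called in any type, at 1.62 (edgeR adjusted p = 0.025). There 9 of 5023 genes were called in arterial cells.

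**Figure D3:**
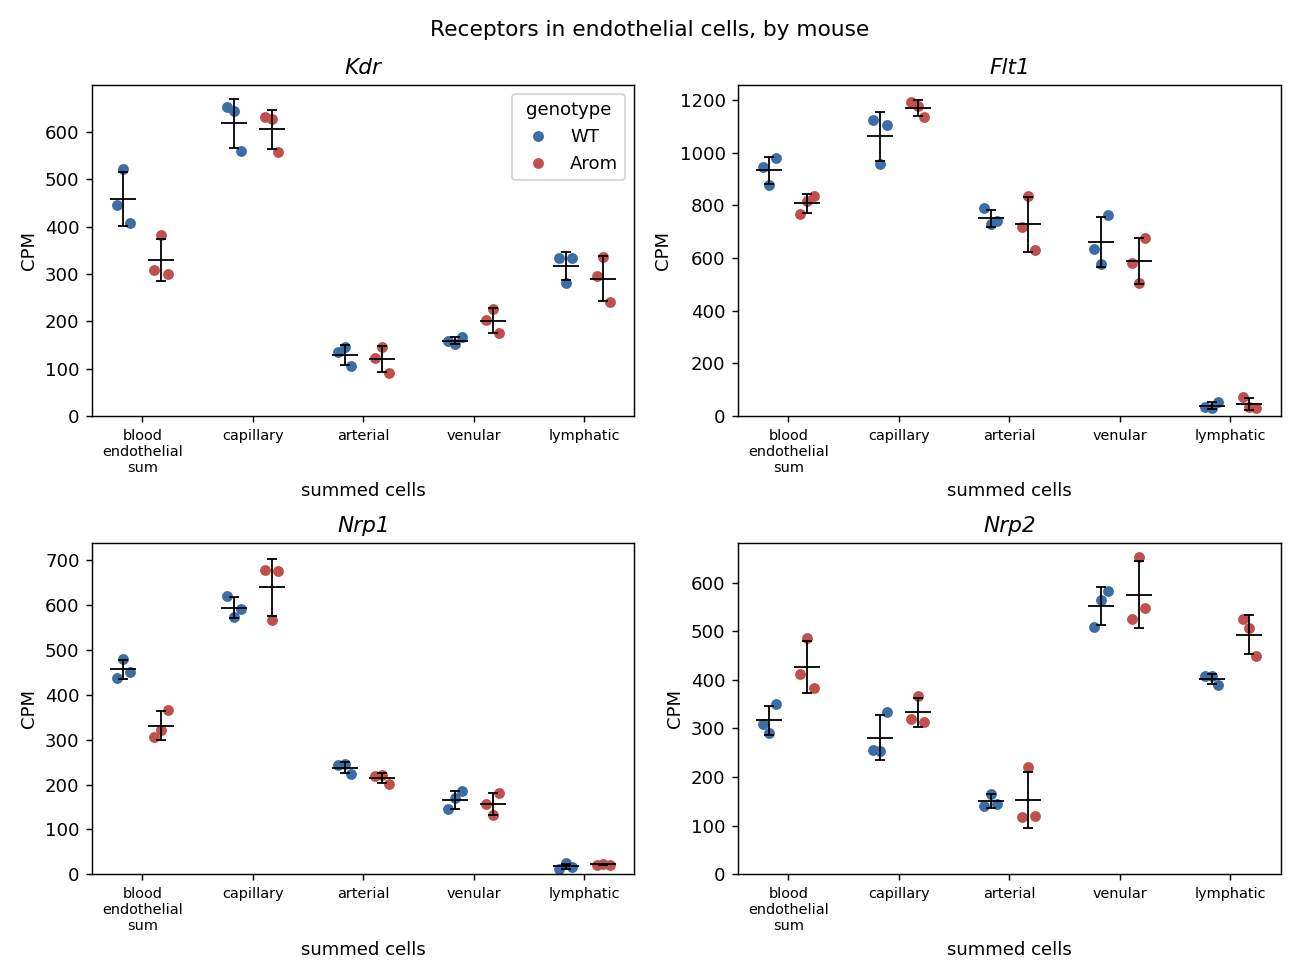
*Kdr*, *Flt1*, *Nrp1* and *Nrp2* in CPM (y axes from 0) in the blood endothelial sum, its 3 vessel types and lymphatic cells, with a point for each mouse and the mean ± SD of the 3 mice of a genotype. *Kdr* and *Nrp1* separate by genotype in the sum (*Kdr* 407 to 521 against 300 to 382 CPM) but overlap in capillary cells.

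Fibroblast-like cells comprised fibroblasts, tenocytes and the *Esr1*-high, *Mmp3*-high and *Dmkn*-high fibroblasts, and 3 of 9 members were called between genotypes in their sum, where 13.5% of genes tested were. *Vegfc* had 21.3, 32.8 and 26.9 CPM in WT and between 10.7 and 15.5 CPM in Arom mice, without overlap (log2 fold change -1.10 ± 0.17, edgeR adjusted p = 0.021). *Flt1* had 12.3, 15.2 and 17.5 CPM against 5.67, 5.17 and 8.20 CPM (-1.26 ± 0.19, edgeR adjusted p = 0.021). *Kdr* rose, from 10.8, 14.1 and 17.3 CPM in WT to 33.3, 40.8 and 26.1 CPM in Arom mice (1.25 ± 0.22, edgeR adjusted p = 0.024). *Nrp1* had 33.0, 37.9 and 35.8 CPM in WT and 88.5, 105 and 41.6 CPM in Arom mice. The lowest Arom mouse, replicate 3, was just above the WT range, and the test missed the threshold (1.14 ± 0.33, edgeR adjusted p = 0.060). *Vegfa* had 54.9, 45.8 and 50.2 CPM against 74.8, 79.4 and 34.8 CPM, with Arom replicate 3 below every WT mouse (0.32 ± 0.31). Without WT replicate 2, WT replicate 3, Arom replicate 1 or Arom replicate 2 no member was called. In those fits 8, 5, 9 and 28 genes were called over all genes. Without WT replicate 1 *Vegfc* alone was called (118 of 14500 genes), and without Arom replicate 3 there were 6 members (4071 of 14041). Within the study's limits on cells none was called (*Vegfc* -0.80, *Flt1* -0.81 and *Kdr* 0.84, edgeR adjusted p from 0.19 to 0.22). There 1 of 10988 genes was called.

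The 250 bases before the start of *Kdr*, *Nrp1*, *Vegfc* and *Flt1* are shown, as these were the members furthest apart between genotypes in fibroblast-like cells. Sequences are from RefSeq on GRCm38.p6 (all 9 members matched, *Vegfa* and *Pgf* with 2 starts each), each on the strand of its gene. Capitals mark GGTCA, the estrogen response half-site, or its complement TGACC.
Kdr: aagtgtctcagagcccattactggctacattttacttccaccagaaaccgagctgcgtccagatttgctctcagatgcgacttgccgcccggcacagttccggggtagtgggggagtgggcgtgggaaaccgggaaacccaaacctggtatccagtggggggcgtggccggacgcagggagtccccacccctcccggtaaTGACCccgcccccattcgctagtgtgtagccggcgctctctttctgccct
Nrp1: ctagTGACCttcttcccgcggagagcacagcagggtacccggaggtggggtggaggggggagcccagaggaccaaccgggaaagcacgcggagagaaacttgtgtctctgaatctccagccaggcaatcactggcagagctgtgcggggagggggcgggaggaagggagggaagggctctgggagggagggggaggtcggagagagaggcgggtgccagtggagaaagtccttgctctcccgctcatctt
Vegfc: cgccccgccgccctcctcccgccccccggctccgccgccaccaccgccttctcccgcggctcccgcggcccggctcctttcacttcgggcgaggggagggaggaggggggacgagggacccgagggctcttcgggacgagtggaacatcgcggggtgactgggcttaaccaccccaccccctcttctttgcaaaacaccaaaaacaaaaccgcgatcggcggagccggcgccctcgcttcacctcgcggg
Flt1: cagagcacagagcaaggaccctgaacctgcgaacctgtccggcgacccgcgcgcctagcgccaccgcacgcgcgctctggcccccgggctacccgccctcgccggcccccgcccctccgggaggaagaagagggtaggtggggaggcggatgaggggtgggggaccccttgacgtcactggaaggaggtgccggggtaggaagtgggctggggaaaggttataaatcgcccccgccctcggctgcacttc

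The windows are chr5:75978456-75978705 for *Kdr*, chr8:128358823-128359072 for *Nrp1*, chr8:54077282-54077531 for *Vegfc* and chr5:147726012-147726261 for *Flt1*. They precede RefSeq starts, while the gene spans given above are from GENCODE, and the sources place some starts differently. The windows of *Nrp1*, *Flt4*, *Pgf* and the second *Vegfa* start lie inside the spans given. Over all 9 members, *Kdr* and *Nrp1* held 1 half-site each, *Flt4*, *Vegfb* and 1 start of *Pgf* held 2, and *Vegfc*, *Flt1*, *Nrp2* and *Vegfa* none, while 35.2% of 32851 such windows held at least 1. Of the members with a half-site, *Kdr* was called in the fibroblast-like sum, and *Nrp1*, *Flt4*, *Vegfb* and *Pgf* were not. *Vegfc* and *Flt1*, which held none, were called there. No member held the full estrogen response element (the half-site, any 3 bases and its complement), which was in 0.0639% of windows. Of the other letters searched on both strands, ACGTG (hypoxia response, 16.6% of windows) was met once, at the second *Vegfa* start, and CCGGAAG (ETS, 6.91%) and ACAAAG (SOX, 16.5%) in no member. The *Vegfa* match lies in chr17:46025164-46025413, within the gene and not before its first start. The half-site lies within the full element, so the searches overlap. A match is a run of letters, not a measured site.

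*Esr1*-high fibroblasts gave 14.6, 7.37 and 9.83% of fibroblast-like UMIs in WT and 40.9, 39.2 and 29.5% in Arom mice. These cells, named for the estrogen receptor gene, had 2 members called, where 11.6% of genes tested were. *Nrp1* had 23.2, 14.3 and 14.1 CPM in WT and 134, 173 and 48.1 CPM in Arom mice, the largest log2 fold change of any member in any type tested (2.71 ± 0.49, edgeR adjusted p = 0.018). The share of these barcodes with a *Nrp1* UMI averaged 16.5% in WT and 61.4% in Arom mice, and 2.16% and 10.0% after thinning to 1000 UMIs. Mesothelial cells had the lowest *Nrp1* level of any type (14.7 ± 4.6 CPM), a UMI in 7.13 ± 1.2% of barcodes and 1.11% after thinning. The median depth was 15445.5 UMIs in *Esr1*-high and 10755 UMIs in mesothelial cells. For *Nrp1* in *Esr1*-high cells, adjusted p values of edgeR ran from 0.00056 to 0.075 when 1 mouse was left out. They were above 0.05, and *Nrp1* was not called, without WT replicate 2, WT replicate 3 or Arom replicate 1. Over all genes, 359, 247 and 159 were called in those fits, against 1384 with all mice. *Vegfc* had 12.9, 23.3 and 18.1 CPM in WT and 7.67, 7.35 and 7.16 CPM in Arom mice (-1.25 ± 0.22, edgeR adjusted p = 0.017). *Kdr* in these cells did not pass the test, with 43.1, 54.3 and 87.0 CPM in WT and 59.3, 76.0 and 59.4 CPM in Arom mice (0.09 ± 0.25, edgeR adjusted p = 0.86).

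In the cells named fibroblasts 3 members were called, where 7.49% of genes tested were. *Vegfc* had 21.4, 34.5 and 26.4 CPM in WT and 14.4, 10.7 and 19.8 CPM in Arom mice (-0.86 ± 0.21, edgeR adjusted p = 0.039). *Pgf* rose there, from 14.1, 9.98 and 19.3 CPM to 36.3, 21.7 and 35.6 CPM (1.13 ± 0.25, edgeR adjusted p = 0.029), and *Flt1* fell by 0.85 ± 0.17 on the log2 scale (edgeR adjusted p = 0.021). At resolution 1.2 none of these 3 was called (edgeR adjusted p = 0.057, 0.099 and 0.071 for *Vegfc*, *Pgf* and *Flt1*). Calls over all genes in fibroblasts also fell there, from 898 of 11992 to 142 of 11957. *Nrp1* in these cells had 40.5, 41.1 and 41.9 CPM in WT and 44.6, 41.0 and 42.7 CPM in Arom mice (0.04 ± 0.09, edgeR adjusted p = 0.82). Tenocytes had *Flt1* called alone (-1.52 ± 0.27, edgeR adjusted p = 0.031, 1.09% of genes called), with *Vegfc* at -0.67 ± 0.18 (edgeR adjusted p = 0.086).

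No member was called in *Mmp3*-high (0.71% of genes called) or *Dmkn*-high fibroblasts (0.375%). At an unadjusted p under 0.05 there were 3 and 4 members, and DESeq2 called 0 and 1. Over all genes, 1960 of 10005 and 1781 of 10655 passed that threshold. *Kdr* in *Dmkn*-high fibroblasts had 3.55, 1.94 and 6.60 CPM in WT and 19.1, 27.3 and 8.86 CPM in Arom mice (2.38 ± 0.53, edgeR adjusted p = 0.091). *Mmp3*-high fibroblasts had 29 barcodes in WT replicate 2, which limits that comparison. *Vegfc* was lower in Arom mice in all 5 subtypes, with log2 fold changes from -0.64 (*Mmp3*-high) to -1.25 (*Esr1*-high). The subtypes come from the same mice and the sum contains them. *Vegfc* averaged only 5.18 CPM in *Dmkn*-high cells. The mean of the summed endothelial markers was also lower in Arom mice in each subtype (35.5 against 24.2 CPM in *Dmkn*-high cells). Their part in the *Vegfc* difference was not tested. With the 5 subtypes weighted equally, *Vegfc* (-0.87, limma adjusted p = 0.015), *Flt1* (-0.98, limma adjusted p = 0.018) and *Nrp1* (0.74, limma adjusted p = 0.049) passed the test and *Kdr* did not (0.62, limma adjusted p = 0.15).

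**Figure D4:**
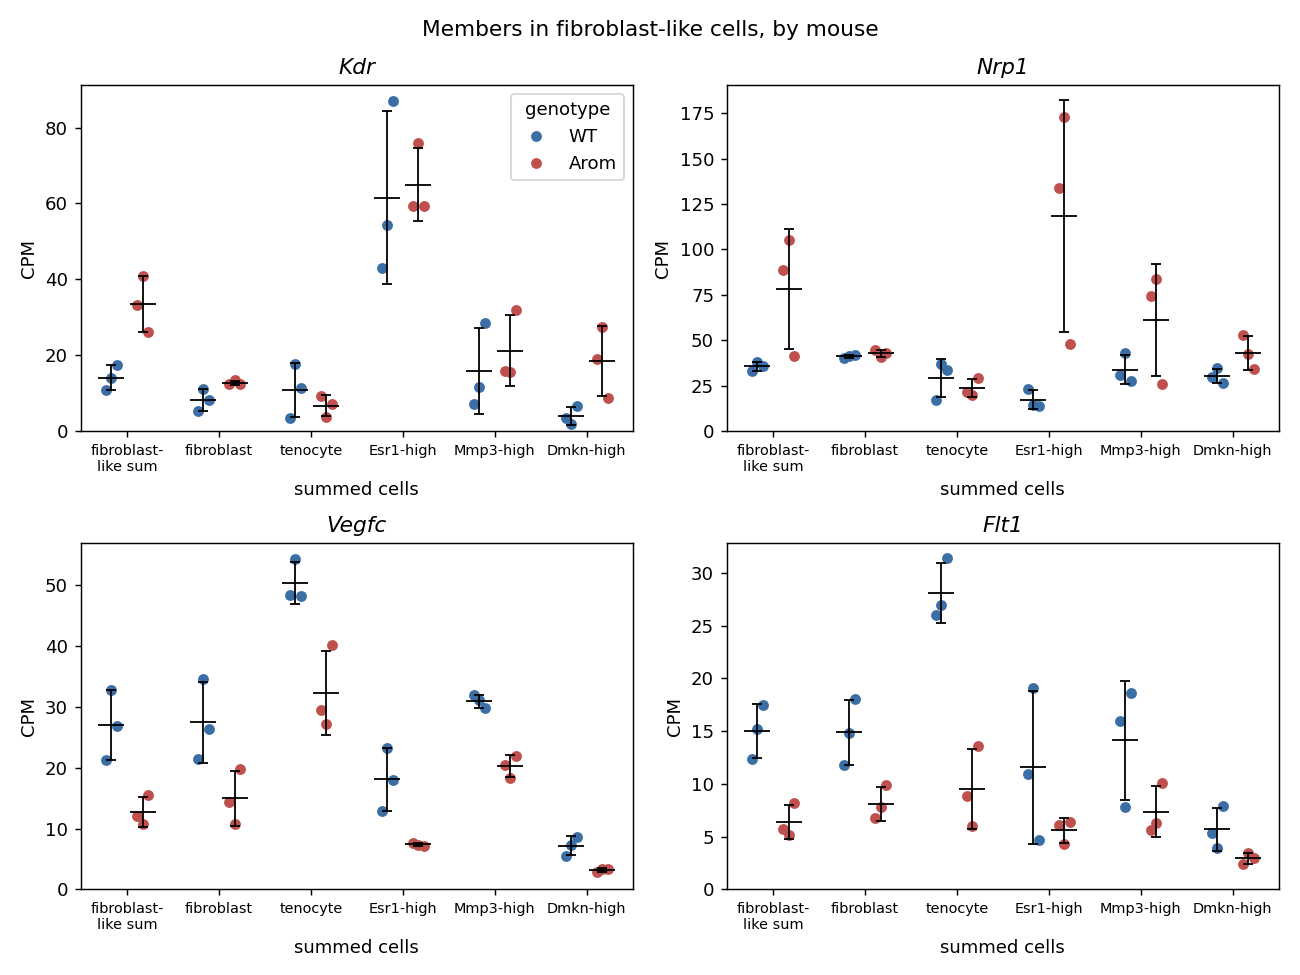
*Kdr*, *Nrp1*, *Vegfc* and *Flt1* in CPM (y axes from 0) in the fibroblast-like sum and its 5 subtypes, with a point for each mouse and the mean ± SD of the 3 mice of a genotype. *Nrp1* parts the genotypes most in *Esr1*-high cells (14.1 to 23.2 against 48.1 to 173 CPM), and *Vegfc* is lower in Arom mice in each subtype.

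The level of *Flt1* in the fibroblast-like sum, at most 17.5 CPM in any mouse, is small beside the 1116 CPM of capillary cells. Tenocytes, the highest of its subtypes, had 18.8 ± 11 CPM. The 6 general endothelial markers were all present in fibroblast-like sums, at a summed 50.7, 56.5 and 71.1 CPM in WT and 30.4, 26.6 and 41.5 CPM in Arom mice. In tenocytes the same sum was 115, 151 and 196 CPM in WT and 37.5, 41.6 and 53.3 CPM in Arom mice, and in skeletal myonuclei 416 to 624 CPM and 125 to 253 CPM. These markers fell together with *Flt1* in the same cells, and their part in the *Flt1* difference was not tested.

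In the 11 other cell types, 65 of the 99 pairs of member and type had enough UMIs to test, and 3 were called. Over all genes, 525 of 82008 tests in these types were called (0.64%). *Nrp1* in muscle stem cells or myoblasts had 15.7, 8.84 and 13.8 CPM in WT and 53.5, 72.4 and 28.0 CPM in Arom mice (1.94 ± 0.31, edgeR adjusted p = 0.028, where 2.2% of genes were called). *Vegfa* in the same cells had 58.9, 91.4 and 55.1 CPM against 36.1, 32.9 and 40.2 CPM, without overlap, and narrowly missed the threshold (-1.04 ± 0.23, edgeR adjusted p = 0.051). *Kdr* in skeletal myonuclei had 41.3, 56.2 and 41.0 CPM in WT and 6.65, 18.7 and 13.7 CPM in Arom mice (-1.94 ± 0.33, edgeR adjusted p = 0.045, 0.438% of genes called), beside the endothelial marker levels given above. *Flt1* in smooth muscle cells had 121, 86.3 and 90.1 CPM in WT and 268, 274 and 141 CPM in Arom mice (1.09 ± 0.24, edgeR adjusted p = 0.0496, 1.63% of genes called). The endothelial markers in those smooth muscle cells were 273, 303 and 317 CPM in WT and 280, 293 and 256 CPM in Arom mice, an overlapping range. At a clustering resolution of 0.5, smooth muscle *Flt1* was -0.47 and not called. Without doublets neither *Flt1* in smooth muscle cells (edgeR adjusted p = 0.057) nor *Kdr* in skeletal myonuclei (edgeR adjusted p = 0.080) was called. Pericytes had 93.9, 41.7 and 148 CPM of *Flt1* in WT and 270, 127 and 177 CPM in Arom mice (1.03 ± 0.32, edgeR adjusted p = 0.29), with endothelial markers at 518, 598 and 599 CPM in WT and 509, 406 and 474 CPM in Arom mice. Macrophage *Vegfa* had 14.1, 56.3 and 23.9 CPM against 98.4, 92.9 and 28.7 CPM and overlapped (1.24 ± 0.55, edgeR adjusted p = 0.54). Without Arom replicate 1, Arom replicate 2 or WT replicate 2 no pair was called, without WT replicate 1 *Nrp1* in muscle stem cells or myoblasts was, without WT replicate 3 *Flt1* in pericytes was, and without Arom replicate 3 there were 8. Calls over all genes rose in each of these types without Arom replicate 3, from 144 to 1346 in smooth muscle cells. In smooth muscle cells they were 11, 7 and 2 without Arom replicate 1, Arom replicate 2 and WT replicate 2.

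Whether the genotype difference itself differed between the fibroblast-like and the blood endothelial sums was tested in 1 edgeR model with the mouse as a block, in which 11.4% of genes were called. It differed for 4 of 9 members. The difference in fibroblast-like cells minus that in blood endothelial cells was 1.70 ± 0.21 for *Kdr* (edgeR adjusted p = 0.0045), 1.48 ± 0.37 for *Nrp1* (adjusted p = 0.034), -1.08 ± 0.16 for *Flt1* (adjusted p = 0.0077) and -0.74 ± 0.16 for *Vegfc* (adjusted p = 0.022), all on the log2 scale. *Kdr* passed the test in both sums with opposite signs, while *Nrp1* passed it in the endothelial sum alone. For *Nrp2* the difference was -0.06 ± 0.13 and was not called (edgeR adjusted p = 0.78). Both sums changed makeup, and with subtypes weighted equally the *Kdr* value was 0.64, *Nrp1* 0.87, *Flt1* -0.87 and *Vegfc* -0.13, none of them called (limma adjusted p of 0.35, 0.20, 0.085 and 0.77). Calls over all genes went from 1584 to 41 of 13920 with that weighting. *Kdr* and *Flt1* were called whichever mouse was left out. Calls over all genes in those fits ran from 324 without WT replicate 2 to 2375 without Arom replicate 3. Both members had been called with all mice, and the fits share mice. Within the study's limits on cells none of the 9 was, with *Kdr* at 1.22 (edgeR adjusted p = 0.062), where 59 of 11478 genes were called.

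**Figure D5:**
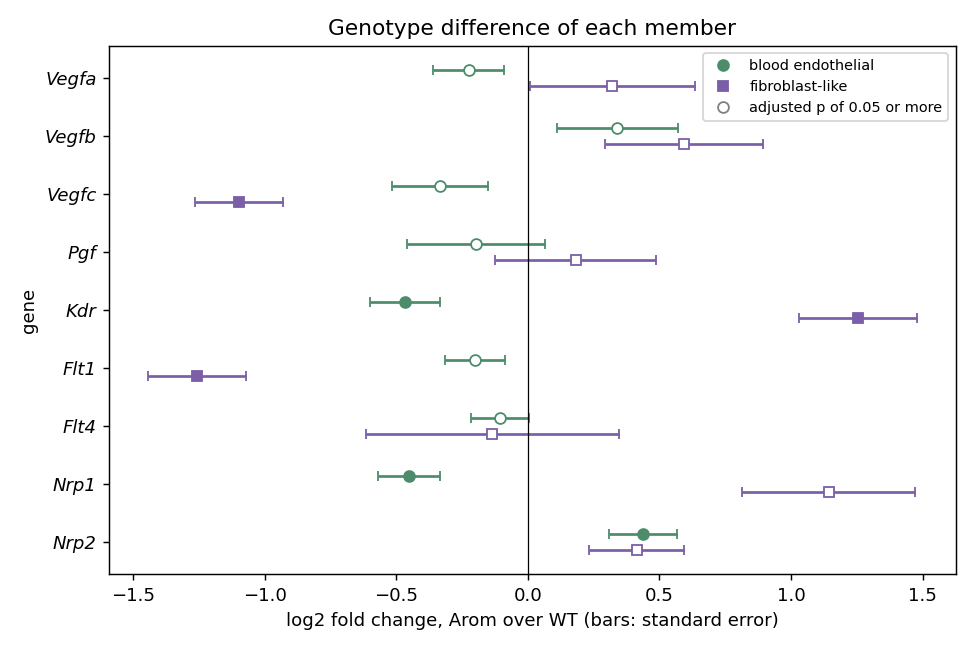
Log2 fold change of Arom over WT with its standard error (x axis) for each member (y axis) in the blood endothelial sum (circles) and the fibroblast-like sum (squares), filled where the adjusted p was under 0.05. *Kdr* lies at -0.47 in the first and 1.25 in the second.

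The rest of the VEGF pathway was counted in lists, in the same sums. Over all genes, 14.3% were called in blood endothelial and 13.5% in fibroblast-like sums. With the vessel types weighted equally the calls over all genes went from 1733 to 190 of 12085 in blood endothelial cells, and from 1876 to 991 of 13937 in fibroblast-like cells. In fibroblast-like cells they were 118, 8 and 5 without WT replicate 1, 2 and 3, were 9, 28 and 4071 without Arom replicate 1, 2 and 3, and 1 of 10988 was left within the study's limits on cells. In blood endothelial cells leaving out 1 mouse gave 455 (without Arom replicate 1) to 1716, and the study's limits 822 of 10104. The lists were not counted again under these settings, so their calls, above all in fibroblast-like cells, hold for the 6 mice together. Of 18 partners and modulators (semaphorins, plexins, integrins and others), 14 were tested in blood endothelial cells, with 4 higher and 0 lower in Arom mice (28.6% called) and a median log2 fold change of 0.30 against -0.0083 over all genes tested. *Itgb3*, an integrin subunit that pairs with *Itgav*, had 1.87, 1.18 and 1.91 CPM in WT and 33.4, 26.8 and 6.74 CPM in Arom mice (3.73 ± 0.54, edgeR adjusted p = 0.0055). *Itgav* itself rose by 1.38 ± 0.28 (edgeR adjusted p = 0.014). *Sema3f*, a ligand of neuropilin-2, rose by 0.80 ± 0.15 (edgeR adjusted p = 0.011) and *Sema3c* by 1.34 ± 0.36 (edgeR adjusted p = 0.037). The level of *Sema3c* was low, at 1.71, 0.999 and 1.12 CPM in WT and 1.81, 4.06 and 3.70 CPM in Arom mice. In fibroblast-like cells all 18 were tested, with 2 higher and 1 lower (16.7%). *Itgb3* (0.89 ± 0.14, edgeR adjusted p = 0.021) and the glypican *Gpc1* (1.67 ± 0.35, edgeR adjusted p = 0.032) rose. *Ccbe1*, whose protein helps to activate VEGF-C, fell by 0.84 ± 0.18 on the log2 scale (edgeR adjusted p = 0.032).

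Of the 5 angiopoietin and Tie genes, 3 were tested in blood endothelial cells and *Angpt2*, a ligand that can destabilize vessels, was called. It had 48.1, 45.3 and 47.6 CPM in WT and 122, 141 and 54.2 CPM in Arom mice (1.17 ± 0.27, edgeR adjusted p = 0.023). *Tek*, its receptor, was called in fibroblast-like cells, where it fell by 0.58 ± 0.14 on the log2 scale (edgeR adjusted p = 0.040). In the same sums the endothelial receptor gene *Tie1* was at -0.73 and *Ptprb* at -0.96 (edgeR adjusted p = 0.14 and 0.096), and the mean of the summed endothelial markers was 59.5 CPM in WT and 32.8 CPM in Arom mice. Their part in the *Tek* difference was not tested. Of 24 genes of VEGFR2 signalling, 21 were tested in blood endothelial cells, with 3 higher (*Pik3r1*, *Vav2* and *Mapkapk2*) and 1 lower (*Nck2*), 19.0% called, and a median of 0.080. In fibroblast-like cells 1 was higher (*Src*) and 2 lower (*Nck1* and *Pik3r1*) of 23, or 13.0%. Both shares are near those over all genes. Of 18 genes of VEGF response and tip cells, 2 were higher and 1 lower in blood endothelial cells (16.7%, near the share over all genes), with a median of 0.0018. *Insr* (1.56 ± 0.23) and *Plvap* (1.49 ± 0.26), the latter a protein of fenestral and caveolar diaphragms that is strong in venules, rose (edgeR adjusted p = 0.0057 and 0.0091). *Dll4*, the Notch ligand of arterial and tip cells, fell by 0.73 ± 0.13 on the log2 scale (edgeR adjusted p = 0.0091). In fibroblast-like cells edgeR called 0 of 17.

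Hypoxia genes, which include known regulators of *Vegfa*, had 4 higher and 2 lower of 17 in blood endothelial cells (35.3% called), with a median of 0.41. *Hif1a* had 160, 133 and 159 CPM in WT and 351, 379 and 262 CPM in Arom mice (1.14 ± 0.15, edgeR adjusted p = 0.0053), and *Ndrg1* by a like amount (1.14 ± 0.20, edgeR adjusted p = 0.0084). *Adm* fell by 1.22 ± 0.12 (edgeR adjusted p = 0.0026) and *Egln1* by 0.71 ± 0.14 (edgeR adjusted p = 0.014). In fibroblast-like cells 2 of 17 were higher (11.8%, below the share over all genes), *Egln3* (2.08 ± 0.22, edgeR adjusted p = 0.013) and *Pgk1* (0.84 ± 0.21, edgeR adjusted p = 0.043). Of 10 dissociation and stress genes, 8 were lower in blood endothelial cells and 4 in fibroblast-like cells and none was higher, with medians of -0.79 and -0.66. *Hspa1a* had 912, 1169 and 1184 CPM in WT and 273, 277 and 343 CPM in Arom endothelial cells. The part of such stress responses, and of the makeup of the sums, in the pathway counts was not tested.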

How the data were processed

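Per the submitters' processing notes and the study's methods, the authors made the counts with Cell Ranger 3.0.2 on mm10 with human *CYP19A1* added, and deposited raw UMI counts per gene and barcode in 1 table. The table holds 16494 genes, and how genes were chosen for it was not given in the sources used here. Every deposited barcode was kept, since the study's limits (200 to 2500 genes, at least 1000 UMIs, at most 5% mitochondrial UMIs) left 18852 of 63647. The 9 members and the gene lists were chosen with earlier results of these data known.

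Counts were scaled to 10000 per barcode and log transformed. Clusters came from 2000 variable genes without the members, 30 components, 20 neighbors and Leiden at resolution 0.8 (scanpy 1.11.5, leidenalg 0.10.2), and were named from marker lists. UMIs were summed per mouse and type where each mouse had 20 or more barcodes, and tested with edgeR 4.0.16 (TMM, filterByExpr, quasi-likelihood, Benjamini-Hochberg over all genes tested, 0.05), two-sided. The tests were first tried on simulated data with known changes. Alternatives were DESeq2 1.42.0, other size factors, no filter, a replicate block, each mouse left out, the study's limits, doublets removed and other resolutions. Doublets were kept in the main set. Scrublet's own threshold marked no WT barcode, so a score of 0.25 chosen after seeing the data was used for that alternative (1143 barcodes). Weighting subtypes equally with limma 3.58.1 was also chosen after seeing the data.

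Named genes were the 9 members in every type, at most the 4 called genes of lowest p in each pathway list, and the 3 genes of most like pattern for each member.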

Additional observations from a re-analysis of the deposited data

Results flagged for a closer look

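The genotype difference in fibroblast-like sums differed from that in blood endothelial sums for 4 members by the interaction term of the edgeR model. The difference between the log2 fold changes was 1.70 for *Kdr*, 1.48 for *Nrp1*, -1.08 for *Flt1* and -0.74 for *Vegfc*. *Kdr* passed the test in both sums with opposite signs, *Nrp1* in the endothelial sum alone, and *Flt1* and *Vegfc* in the fibroblast-like sum alone. The makeup of both sums differed between genotypes, and none of the 4 was called with subtypes weighted equally. With that weighting, calls over all genes went from 1584 to 41 of 13920.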

How the results depend on the processing

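With 1 mouse left out, the 138 values of called members all kept their direction, with an unadjusted p of at most 0.0355 (edgeR's quasi-likelihood test). These values were chosen for passing the test with all mice, the fits share mice and some sums contain others. A kept direction was therefore likely beforehand and is no measure of stability. The number of calls over all genes also moved, from 1876 with all mice to between 5 and 4071 in fibroblast-like cells and from 1733 to between 455 and 1716 in blood endothelial cells. For the difference between the cell groups it moved from 1584 to between 324 and 2375. Leaving out 1 mouse gave 0 to 2 called members in blood endothelial cells (3 with all mice), 0 to 6 in fibroblast-like cells (3), 0 to 8 in sums over all barcodes (4), 0 to 8 pairs in other types (3) and 2 to 5 for the difference between the cell groups (4). The cell type with the highest level was kept for 8 to 9 of the 9 members. Within the study's limits on cells, which leave fewer barcodes, 0 members were called in blood endothelial, fibroblast-like and all-barcode sums, 0 for the difference between the groups and 0 in the 4 other types that could be tested. Over all genes, 822 of 10104, 1 of 10988, 0 of 13630 and 59 of 11478 were called in those sums and for the difference. In the other types these calls ran from 0 to 30. With subtypes weighted equally, 0 were called in blood endothelial cells (190 of 12085 over all genes) and 0 for the difference (41 of 13920). DESeq2 called 7 in all barcodes and 5 in other types, and no filter on low counts gave 10 in other types. With DESeq2 calls over all genes rose in each other type but pericytes (16 to 1), from 144 to 274 in smooth muscle cells. With no filter they rose in each but dendritic cells (0 in both), to 567 in smooth muscle cells. *Flt1* in smooth muscle cells had a log2 fold change of -0.47 at resolution 0.5, and the cause was not tested. Without doublets, 21 called values kept their call and 2 did not, and at resolution 1.2 these were 16 and 3. Without doublets the calls over all genes went from 144 to 76 in smooth muscle cells and from 33 to 13 in skeletal myonuclei. In fibroblasts, which held the 3 calls lost at resolution 1.2, they went from 898 to 142 there. At resolution 0.5, 16 kept their call, 2 did not (*Pgf* in fibroblasts at 0.97 and *Kdr* in skeletal myonuclei at -1.87) and 1 turned sign. With no filter on low counts *Nrp2* in blood endothelial cells was not called (0.43). Same-numbered samples deviated together in blood endothelial sums (r = 0.28, 0.20 and 0.34), where each sample correlated best with its own number, but not throughout in fibroblast-like (0.23, -0.13 and 0.19) or all-barcode sums (0.24, -0.02 and 0.28), so the numbers were not taken as pairing. A replicate block gave 3 called members in blood endothelial cells (1733 to 2897 calls over all genes) and 3 in fibroblast-like cells (1876 to 1484). It gave 6 in all barcodes (3612 to 3999) and 7 pairs in other types. In each of those types calls over all genes rose too, from 144 to 824 in smooth muscle cells. The block also called arterial *Pgf* (1.12, edgeR adjusted p = 0.031), where calls over all genes went from 5 to 235 of 8217. The model of the difference between the groups already holds the mouse as a block, so no replicate block was added there. Low members limit the precision: 65 of 99 pairs in other types had enough UMIs to test.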

Other observations

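Some clusters carried markers of more than 1 lineage or too few markers and were left unnamed. Together they held on average 32.7% of the *Flt1* UMIs, 25.2% of *Pgf*, 24.0% of *Kdr* and of *Nrp1* and *Nrp2*, and 20.3% of *Vegfc*, and the levels by cell type do not include them. For *Kdr* these shares were 24.8, 32.1 and 30.3% in WT and 15.2, 19.6 and 21.7% in Arom mice. The largest of them, 2792 barcodes with a median of 12066 UMIs, had pericyte and endothelial genes (*Rgs5*, *Cldn5*, *Sox17*) among its leading genes. It had *Flt1* at 890 ± 54 CPM, *Nrp1* at 368 ± 13 CPM, *Nrp2* at 314 ± 46 CPM, *Kdr* at 309 ± 38 CPM and *Vegfc* at 50.5 ± 12 CPM (mean ± SD, n = 6 mice). A cluster of 935 barcodes led by *Apod*, *Sfrp5* and *Lypd2* had *Nrp1* at 124 ± 29 CPM, *Nrp2* at 121 ± 23 CPM and *Vegfa* at 72.0 ± 12 CPM. A cluster of 404 barcodes led by the cell cycle genes *Ube2c*, *Birc5* and *Top2a* had *Flt1* at 260 ± 135 CPM and *Kdr* at 147 ± 50 CPM.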
